A study of Homo sapiens with 24 samples.

Results

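Chromosome 3 from 80 Mb to its end (GRCh38), which takes in the last part of the short arm and the long arm, was examined for acetylation of histone H3 at lysine 27 (H3K27Ac) after knockdown of ANCO1. It was chosen by position: every region of the deposited tables on chromosome 3 whose start lay at or above 80 Mb was a member. The position itself was picked after the direct fold changes of these tables had been seen, so the size of the change along the stretch is given as a description with no test. The 6 tables held 6368 member regions of 171345 in all. The direct comparison of DCIS gave 1532 of 44790 regions and that of 10A gave 1877 of 50284.

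The 24 libraries formed 8 groups of 3: an H3K27Ac precipitate and an unprecipitated input for each of 4 cell populations. 10A (MCF10A) is an established, non-malignant human mammary epithelial line, and DCIS (MCFDCIS) is an oncogene-transfected derivative of it that models ductal carcinoma in situ, so that both share one parental genome. Each line carried either a lentiviral hairpin against ANCO1, the product of ANKRD11 (shANCO1), or a hairpin against GFP (shGFP control), called shCTRL in the sample names. The labels do not name the hairpin sequence behind the shANCO1 libraries. All populations were grown with horse serum, EGF, insulin, hydrocortisone and cholera toxin. The question was how H3K27Ac differed between knockdown and control in either line. ANCO1 itself was not measured by these tables.

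A region is a run of neighbouring windows tested as 1 unit, and the narrowest spanned 200 bp. Its log2 fold change is that of the window chosen to represent it, and its FDR is the adjusted value given for the whole region. A region is called up or down where the FDR was under 0.05 and the deposited direction was up or down. The tables hold whole groups and no library, so the depth is unknown and no spread between replicates could be computed. The intervals below are 95% intervals for a share (Wilson) or a median (order statistics) over regions. Neighbouring regions are not independent, so these intervals cover the counting of regions and not the variation between cultures.

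H3K27Ac marks promoters and enhancers in use, and the enzymes that write and erase it are brought to DNA by transcription factors and coregulators. ANCO1 is an ankyrin repeat protein that binds coactivators of the p160 family and recruits histone deacetylases. The long arm carries several genes of squamous and basal epithelium, among them TP63, CLDN1 and CSTA, the YAP paralogue WWTR1, the kinase gene PIK3CA and the guanine nucleotide exchange factor ECT2, and extra copies of its distal part are common in squamous carcinomas. The epithelial nature of the cells could be checked at the promoters of 8 listed epithelial markers. In both DCIS groups 6 of 8 were enriched over input (KRT5, KRT17, LAMB3, ITGB4, CDH1 and EPCAM). In 10A, 4 of 8 were enriched in shANCO1 and 3 of 8 in shCTRL. The promoters of KRT14 and TP63 were enriched in no group. No fibroblast, endothelial or blood marker was enriched in any group. Of 3 luminal markers, ESR1 and PGR were enriched in no group, and FOXA1 was enriched in both shANCO1 groups and in neither control.

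Sequences from regions with large changes are shown first, 5′ to 3′ on the plus strand of GRCh38. Capitals mark the AP-1 letters TGACTCA, known as the binding site of FOS and JUN proteins. They also mark the TEAD letters GGAATG. Both were searched on either strand. Each stretch of letters is centred on an AP-1 match of its region or, at TPRG1, on a TEAD match. They were taken from the extremes among regions of at least 5 windows: the largest gains of DCIS at LINC00973 and COL8A1, a leading gain of 10A at FNDC3B, and the loss at TPRG1, the gene with most losses. The 2 largest losses of DCIS held neither set of letters and are shown by the middle of their regions. The MECOM gain of 10A, which also held neither, is not shown.
LINC00973, chr3:98980959-98981059: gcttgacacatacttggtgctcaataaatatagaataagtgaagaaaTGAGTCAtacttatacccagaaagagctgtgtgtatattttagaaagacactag
COL8A1 intron, chr3:99751812-99751912: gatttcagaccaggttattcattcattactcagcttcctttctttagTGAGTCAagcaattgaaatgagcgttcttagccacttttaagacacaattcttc
FNDC3B intron, chr3:172318041-172318141: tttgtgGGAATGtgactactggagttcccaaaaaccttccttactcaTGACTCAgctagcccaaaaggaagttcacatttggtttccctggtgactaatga
TPRG1 intron, chr3:189316420-189316520: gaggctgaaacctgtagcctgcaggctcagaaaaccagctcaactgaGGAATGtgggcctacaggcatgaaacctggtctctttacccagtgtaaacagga
Loss nearest ARHGEF26, chr3:154023251-154023351: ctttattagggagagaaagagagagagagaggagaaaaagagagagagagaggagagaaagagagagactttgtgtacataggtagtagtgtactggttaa
Loss nearest COL8A1, chr3:99270051-99270151: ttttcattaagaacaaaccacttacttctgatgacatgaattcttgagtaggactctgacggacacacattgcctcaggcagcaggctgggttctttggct
The AP-1 match at LINC00973 began 52 bases before the annotated start of that long noncoding RNA. The TPRG1 region held no AP-1 match and 3 TEAD matches over its whole length.

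In the direct comparison of DCIS, a larger share of regions was called up on the stretch than elsewhere in the genome. Of the 1532 regions, 621 were up (40.5%, 38.1 to 43.0) and 44 were down (2.87%), where 23.6% of all regions of the DCIS table were up and 4.86% were down. Chromosome 3 below 80 Mb had 268 of 1153 regions up (23.2%) and the rest of the genome 9946 of 43258 (23.0%). The median log2 fold change was 0.98 on the stretch, 0.48 on the remainder of the chromosome and 0.50 in the rest of the genome. Because the stretch was picked on these fold changes, nothing is read from its lead over the other chromosomes.

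10A showed no such lead. There, 812 of 1877 regions were up (43.3%, 41.0 to 45.5) and 4 were down, where 43.6% of all regions were up and 0.225% were down. The median log2 fold change was 0.78 on the stretch and 0.76 in the rest of the genome, a gap of 0.02 (-0.01 to 0.03). Among 24 segments, made of the autosomes and X with chromosome 3 divided at 80 Mb, the stretch ranked 1 of 24 by median in DCIS and 10 of 24 in 10A. The next segment in DCIS was chromosome 15, with a median of 0.60 and 26.8% of its regions up.

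**Figure D1:**
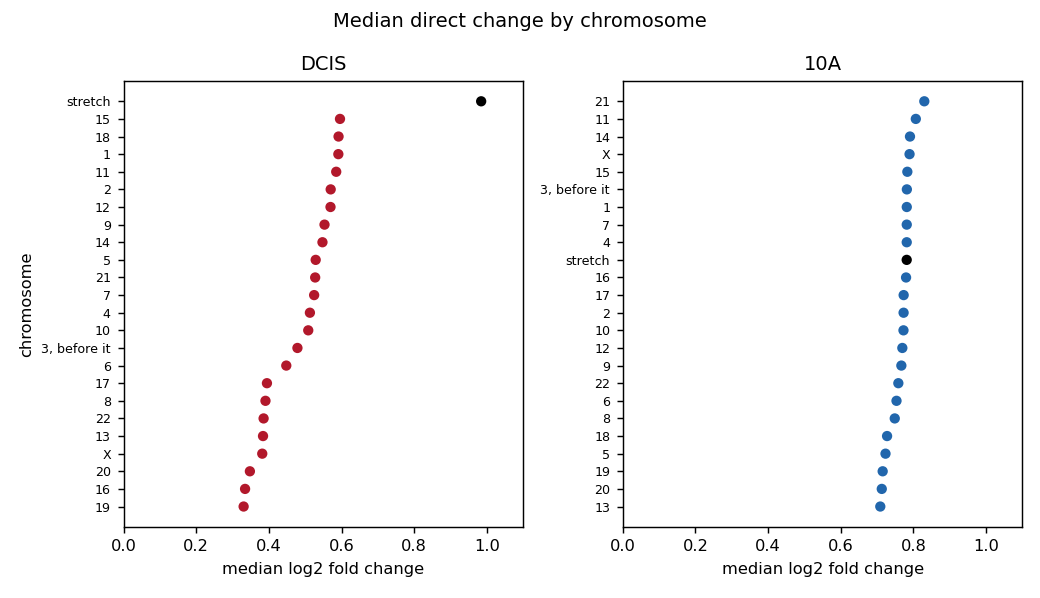
Median log2 fold change of the direct comparison (shANCO1 over shCTRL, x axis) for each chromosome, with chromosome 3 divided in 2 segments; the black point is the stretch. In DCIS it sits at 0.98, away from the other segments, which reach 0.60 at most; in 10A it sits among them at 0.78.

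The offset of DCIS covered the whole spread of fold changes. Against the rest of the genome, the 10th percentile was higher by 0.46, the 25th by 0.65, the median by 0.48, the 75th by 0.46 and the 90th by 0.49. The low percentiles were thus displaced along with the high ones, which again describes the values the stretch was picked on. In 10A the largest of the same 5 gaps was that of the median, 0.02.

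**Figure D2:**
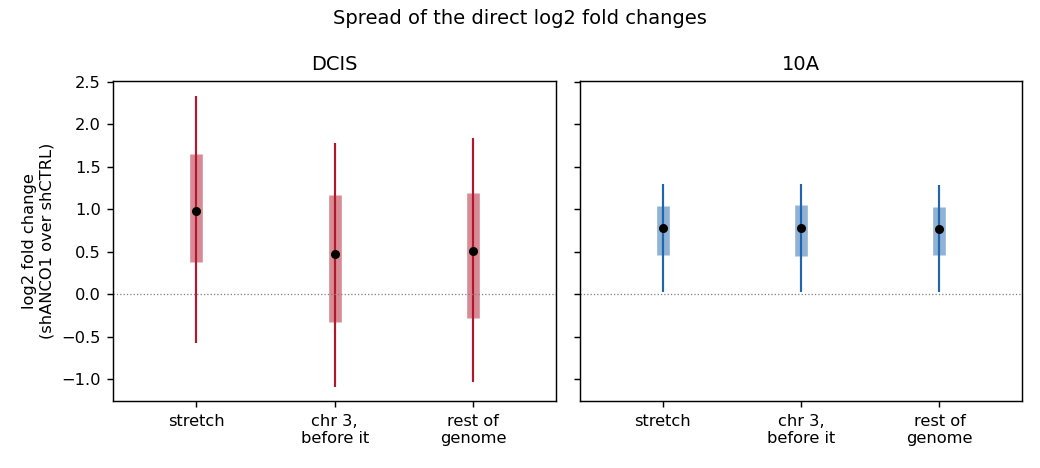
Log2 fold changes (y axis) of the direct comparison for the stretch, the remainder of chromosome 3 and the rest of the genome in each line; dots are medians, thick bars run from the 25th to the 75th percentile and thin lines from the 10th to the 90th. The DCIS stretch is displaced upward at every percentile, with a 10th percentile of -0.57 against -1.03 in the rest of the genome.

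By median, the offset was seen in every bin counted, which is given as a description of the values the stretch was picked on. In bins of 5 Mb with at least 20 regions, 21 of 21 bins of the stretch had a DCIS median above that of the whole table (0.52), with bin medians between 0.69 and 1.42. By share of regions up, 19 of these 21 bins were above the 23.6% of the whole table. The bins at 140 to 145 Mb (19.0%) and 165 to 170 Mb (22.7%) were below it. On chromosome 3 below 80 Mb, 8 of 16 bins were above it (-0.34 to 0.92), and 229 of the other 504 bins of the genome were (45.4%). The bins with the highest medians were 130 to 135 Mb (1.42) and 95 to 100 Mb (1.36), and the lowest were 165 to 170, 140 to 145 and 115 to 120 Mb (all 0.69). In 10A, 17 of 22 bins were above the table's median of 0.76, and their range was 0.62 to 1.01.

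**Figure D3:**
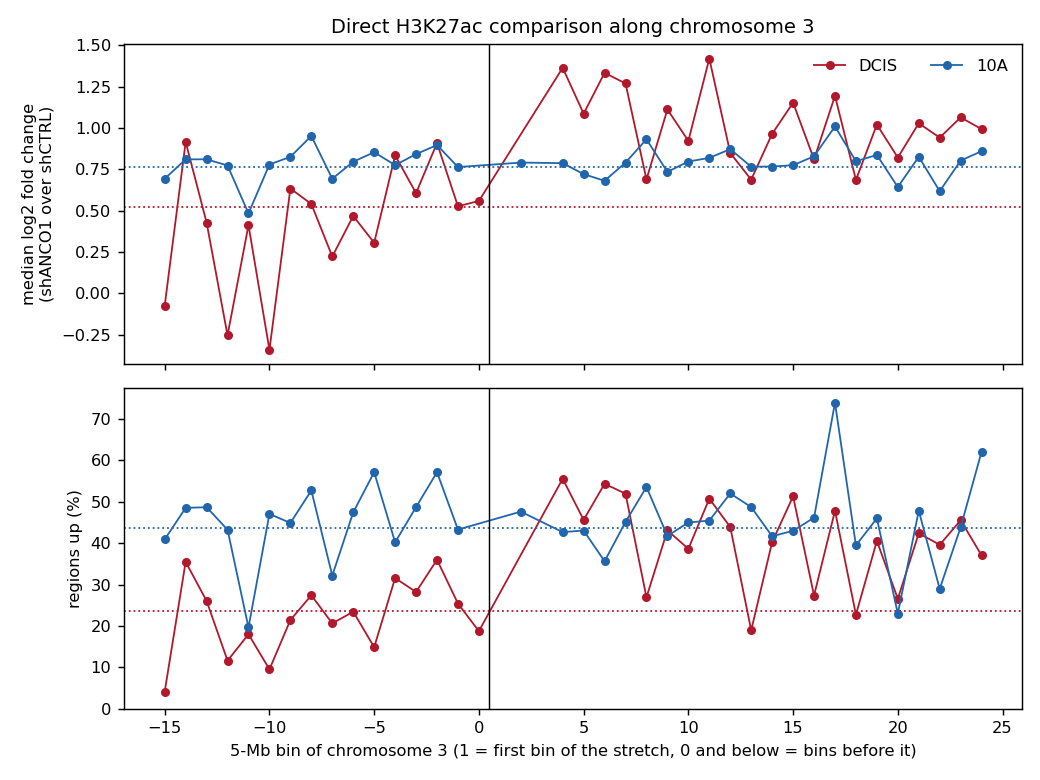
Median log2 fold change (top) and percent of regions called up (bottom) in 5-Mb bins of chromosome 3 with at least 20 regions, counted from the first bin of the stretch; dotted lines are the values of each whole table and the vertical line is the start of the stretch. All 21 DCIS bins of the stretch lie above the dotted DCIS line in the top panel, while the bins before it lie on both sides. In the bottom panel, 19 of the 21 DCIS bins of the stretch lie above their line.

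The start of the stretch was thinly covered. The DCIS bins from 80 to 95 Mb held 16, 15 and 6 regions, with medians of 1.39, 0.71 and 0.60. The nearest regions inside the boundary, at chr3:80189801-80190100 and chr3:80190501-80190900, had DCIS log2 fold changes of 0.38 and 0.43, and the third, at the GBE1 promoter, had 1.74. The nearest outside, at chr3:79878301-79879000 and chr3:79873001-79873700, had 0.51 and -1.27, and the third, at ROBO1, had 0.88. In 10A the 3 nearest regions inside, all at GBE1, had 0.57, 1.13 and 0.82, and the 3 nearest outside, all at ROBO1, had 1.05, -0.39 and -0.22. These values do not place an edge. Counted from 94 Mb, which leaves out the gap around the centromere, the median gap was also 0.48.

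The offset is also given for regions at promoters and away from them, and with and without marking over input. These classes divide the values the stretch was picked on, so their gaps are a description and nothing is read from them. For regions with a transcription start site (TSS) within 1 kb, the DCIS median was 0.66 above that of the same class in the rest of the genome (0.59 to 0.72), and for those without, 0.44 (0.37 to 0.53). Regions enriched over input in both DCIS groups were 0.41 higher (0.34 to 0.49), and the 968 regions enriched in neither group were 0.52 higher (0.43 to 0.61). The last class holds windows whose signal did not pass as enriched in either group. For the 60 regions enriched in shCTRL only, the gap was 0.04 with an interval from -0.23 to 0.54.

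Comparing each group with input gave another picture. The direct tables compare precipitated libraries with each other, whereas each over-input table compares a precipitate with input. The input libraries behind each over-input table are not named in the sources used here, so it is not known whether both groups of a line were set against the same input. In DCIS, 358 regions of the stretch were enriched in both groups, and their shANCO1 value over input exceeded the shCTRL value by a median of 0.40 (0.23 to 0.57). In the rest of the genome this difference was 0.48 over 10433 pairs, so the stretch lay 0.08 below it (-0.25 to 0.09). For the same 358 pairs the direct fold change lay 0.40 above the rest (0.33 to 0.47). Over input, the pairs of the stretch had medians of 4.64 in shANCO1 and 4.26 in shCTRL, which lay 0.09 and 0.26 above those of the rest of the genome. For these pairs, whose inputs are not known, the difference between knockdown and control over input thus had no lead on the stretch. The pairs leave out regions enriched in 1 group only, and each compares representative windows of 2 separate regions. By number of enriched regions, the share on the stretch was 3.81% in DCIS shANCO1 and 3.23% in DCIS shCTRL. The number of copies of the stretch in either DCIS population was not measured, and its part in the direct values was not tested.

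In 10A, 519 pairs had a median difference over input of 0.23, against 0.40 in the rest of the genome, a gap of -0.17 (-0.28 to -0.05). Their direct gap was 0.02 (-0.01 to 0.05). The over-input and direct tables share their precipitated libraries and are not independent of each other.

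**Figure D4:**
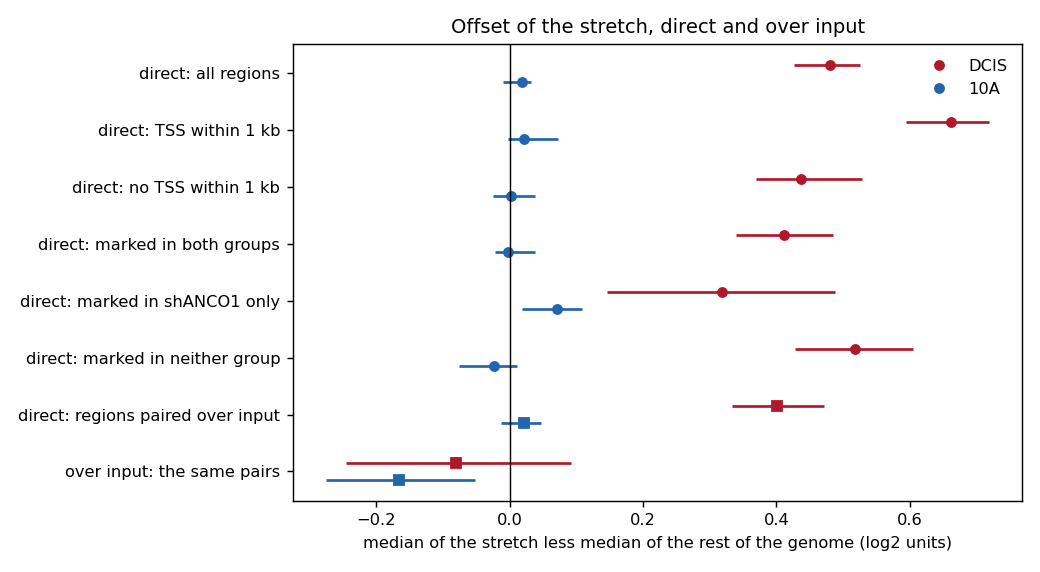
Median log2 fold change of the stretch less that of the rest of the genome (x axis, log2 units) for classes of regions in the direct tables and, in the last row, for the difference between shANCO1 and shCTRL over input; lines are 95% intervals of the stretch's median. DCIS lies between 0.32 and 0.66 in the direct rows drawn and at -0.08 over input; 10A lies near 0 in the direct rows and at -0.17 over input.

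More regions were enriched over input in the knockdown groups, on the stretch and in the whole tables. Over input, DCIS shANCO1 had 636 enriched regions on the stretch covering 0.445 Mb and DCIS shCTRL had 500 covering 0.342 Mb. In 10A these numbers were 1157 regions and 1.05 Mb against 666 regions and 0.403 Mb. The whole tables held 16692 and 15480 enriched regions in DCIS and 28607 and 15490 in 10A. The share lying on the stretch was thus 3.81% (3.53 to 4.11) in DCIS shANCO1 and 3.23% (2.96 to 3.52) in DCIS shCTRL, and 4.04% (3.82 to 4.28) and 4.30% (3.99 to 4.63) in 10A. Of the DCIS shANCO1 regions, 56.3% (52.4 to 60.1) overlapped a shCTRL region, compared with 65.0% in the rest of the genome. In 10A the share was 44.9%, against 41.6%. In the other direction, 74.6% of DCIS shCTRL regions and 95.2% of 10A shCTRL regions of the stretch overlapped a region of the knockdown, compared with 71.7% and 94.3% in the rest of the genome.

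The kinds of sequence that gained differed between the lines. In DCIS, 44.8% of the 582 intergenic and 44.7% of the 546 intronic regions were up, against 26.6% of the 218 regions that held coding exon and UTR. In 10A this order was turned around, with 37.9% of intergenic and 36.5% of intronic regions up and 66.8% of the regions with coding exon and UTR. Near a TSS, 24.2% of regions were up in DCIS and 64.6% in 10A, and away from a TSS 46.6% and 37.9%. The whole tables had the same order, with 7.99% and 59.8% near a TSS and 30.1% and 38.3% away from one, so this contrast between the lines was not particular to the stretch.

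At sites of the stretch tested in both lines, DCIS fold changes were higher. The stretch was picked on the direct fold changes, so this is a description and nothing is read from the difference. The 1028 regions of 10A that overlapped a DCIS region had a median DCIS log2 fold change of 1.17 and a 10A value of 0.81, and the paired difference was 0.41 (0.32 to 0.49). In the rest of the genome it was -0.09. Both lines called 276 of these pairs up. Of the 521 pairs up in 10A, 53.0% were up in DCIS, compared with 49.6% of all 1028 pairs.

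Opposite calls were given to 5 of the 1028 pairs: 4 gained in 10A but lost in DCIS, and 1 did the reverse, where the rest of the genome had 262 and 19 of 28231. These 5 were named after their values were seen. A TSS region of ARHGAP31, a GTPase-activating protein, was up in 10A (1.59, FDR 7.93e-08) and down in DCIS (-1.46, FDR 0.0441). The DCIS region had 1 of 12 windows down and was enriched over input in neither DCIS group. A region between genes near CCDC80 was down in 10A (-0.87) and up in DCIS (2.52, FDR 2.48e-06). At 2 regions of TPRG1, and at 1 lying 65.1 kb from HES1, a transcription factor downstream of Notch, DCIS was down where 10A was up. These DCIS regions overlapped regions enriched over input in both DCIS groups, so the mark was lower and not absent.

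The strongest gains of DCIS lay together around LINC00973 and DCBLD2, a neuropilin-like transmembrane receptor. Within 100 kb of LINC00973, 9 of 11 regions were up in DCIS, with a median log2 fold change of 3.71. The largest was chr3:98981001-98982900, over the start of LINC00973 itself (5.44, FDR 2.52e-11). Further regions of the block had 4.77 (chr3:98923101-98924100, FDR 3.42e-21), 4.46 (chr3:98971401-98973100), 4.43 (chr3:98970101-98971100) and 4.35 (chr3:98961801-98963500). The promoter region of DCBLD2, chr3:98898401-98902700, had 3.42 (FDR 1.78e-07). DCIS shANCO1 had 11 enriched regions in this block over input, from 3.19 to 7.76 on the log2 scale, and DCIS shCTRL had 0. Among narrower regions, a site of 3 windows in ALDH1L1, a folate enzyme (5.41, FDR 1.27e-11), and one of 4 windows in MB21D2 (5.10, FDR 2.55e-09) were as high, and both were named after their values were seen.

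10A carried the block in both groups. Over input, 16 regions were enriched in 10A shANCO1 and 12 in 10A shCTRL. In the direct comparison 13 of 24 regions were up. The region over the start of LINC00973 was the third largest gain of 10A among regions of at least 5 windows (2.25, FDR 3.39e-05), and the promoter region of DCBLD2 had 0.92 (FDR 2.17e-04). The other leading gains of 10A at that width were at MECOM (2.43), at FNDC3B (2.28), 34.5 kb from TSC22D2 (2.19) and 57.9 kb from GSK3B (2.03). The MECOM and FNDC3B regions were enriched over input in neither 10A group, and the sites near TSC22D2 and GSK3B in both. A narrower site of 3 windows near ABI3BP, at chr3:101010001-101010400, had 2.67 and was also named after its value was seen.

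The next DCIS gain of that width lay in an intron of COL8A1, which encodes a chain of type VIII collagen: chr3:99751101-99752700 had 5.10 (FDR 3.46e-09). The same site had 1.78 in 10A (FDR 3.96e-04). At the COL8A1 promoter DCIS had 0.27 (FDR 0.84) and 10A 0.80 (FDR 5.64e-04), so the DCIS change was at the intronic site.

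Losses were fewer and most lay away from promoters, as did most of the regions tested. Of the 44 regions down in DCIS, 24 were intergenic, 14 intronic and 3 near a TSS. The largest were 2 intergenic sites of at least 5 windows: chr3:154023001-154023600 at -4.72 (FDR 1.58e-07) and chr3:99269301-99270900 at -4.24 (FDR 3.02e-08), both enriched over input in shCTRL and not in shANCO1. A site of 3 windows near PLSCR4, likewise named afterwards, had -2.68 (FDR 4.00e-04). Then came an intergenic site nearest to BOC (-2.31) and a site in MFSD1, a lysosomal transporter (-2.27, with 1 of 40 windows down). The 4 losses of 10A were all small, from -0.87 to -1.13.

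TPRG1, named for its regulation by p63 and a neighbour of TP63, held the largest group of losses. Of its 17 DCIS regions, 7 were down and 1, near the start of the locus, was up (1.93, FDR 2.06e-04). Toward its end the values were -2.10 (chr3:189306801-189310700, FDR 4.11e-05), -2.01, -2.26 (chr3:189314901-189318500, FDR 3.02e-06) and -2.24 (chr3:189321601-189326000, FDR 8.04e-04). Over input, DCIS shCTRL had 16 enriched regions there covering 18.2 kb, with a median of 6.96, and DCIS shANCO1 had 10 covering 7.10 kb, with a median of 4.78. In the DCIS knockdown the direct values thus fell toward the end of TPRG1, and fewer regions were enriched over the whole locus. Near its start the direct values were 0.93 (FDR 0.13) and 1.93. Over input, the widest enriched region there had 5.44 in DCIS shANCO1, and 2 in DCIS shCTRL had 4.33 and 4.97. In 10A, 3 of 13 regions were up, none was down, and both groups had 11 enriched regions.

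Of 583 protein-coding genes on the stretch, 405 had a DCIS region over the gene or the 5 kb before it. An up region was found at 190 genes and a down region at 9. In 10A, 424 genes had a region, 316 an up region and 1 a down region, and 151 genes had an up region in both lines. Genes elsewhere in the genome were not counted, so these numbers have no background share and are a description only. The genes with the most up regions in DCIS were MCF2L2, a guanine nucleotide exchange factor (16 of 18), MGLL, the monoacylglycerol lipase (12 of 13), and B3GNT5, a glycosyltransferase of glycosphingolipids (10 of 11). Then came CLDN16, a claudin (10 of 12), the RNA-binding protein gene IGF2BP2 (10 of 19) and IQCJ-SCHIP1 (10 of 34, over 935 kb). This order was not adjusted for gene length or for the number of regions tested. B3GNT5 lies inside MCF2L2, and all 10 of its up regions were also counted for MCF2L2. In 10A the leaders were IGF2BP2 (14 of 20), FNDC3B (13 of 25), MCF2L2 (13 of 29), PHLDB2 (13 of 22) and MGLL (10 of 17).

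A set of 139 genes of the stretch was read by role, with up to 6 genes named per list. Of these, 113 had a DCIS region; 64 had an up region and 4 a down region, and 183 of 486 regions were up (37.7%). In 10A, 116 had a region, 100 an up region and 1 a down region, and 261 of 563 regions were up (46.4%). The lists were thus near the share of the whole stretch in both lines, 40.5% and 43.3%. At the TSS, 21 of 104 genes were up in DCIS and 78 of 100 in 10A, and 18 genes were up there in both lines. Among them were ALCAM, ATR, CSTA, ECT2, IL20RB, MBNL1, MGLL, NCEH1, PLOD2, PRKCI, RASA2, SEC61A1, TM4SF1, TM4SF19, TOPBP1, VGLL3 and ZBTB38.

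**Figure D5:**
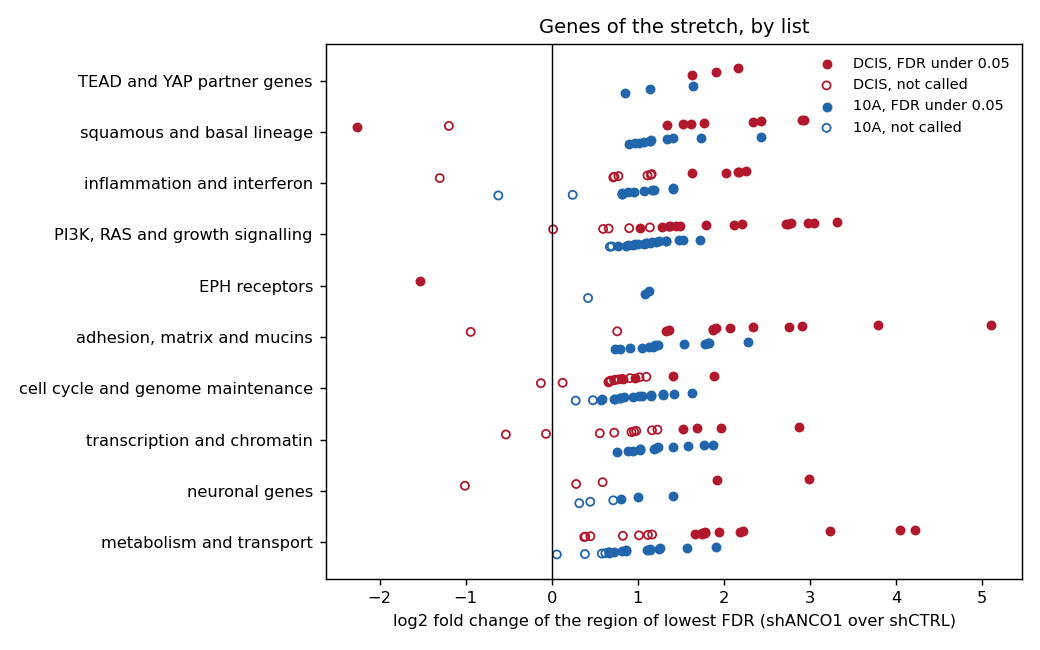
Log2 fold change (x axis) of the lowest-FDR region of each tested gene, by list, for DCIS (red) and 10A (blue); filled points had an FDR under 0.05. The DCIS points spread from -2.26 (TPRG1) to 5.10 (COL8A1), while those of 10A lie between -0.62 and 2.43.

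Of the genes that act with TEAD factors, all 3 had an up region in each line. Of their regions, 11 of 33 were up in DCIS (33.3%) and 14 of 30 in 10A (46.7%), against 40.5% and 43.3% for the stretch. WWTR1, which encodes the YAP paralogue TAZ, had 8 of 25 DCIS regions up and 6 of 13 in 10A, with lowest-FDR values of 2.17 (FDR 3.45e-04) and 1.15 (FDR 1.74e-06). VGLL3, a TEAD cofactor, had 1.91 (FDR 8.14e-05) and 0.85 (FDR 0.00591) at overlapping intronic sites. AMOTL2, an angiomotin that holds YAP in the cytoplasm, had 1.63 (FDR 0.00186) and 1.64 (FDR 8.33e-04). The WWTR1 promoter was up in 10A (0.89) and not called in DCIS (0.58, FDR 0.44).

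Of 12 squamous and basal genes, 9 had an up region in DCIS and 11 in 10A. Of their regions, 24 of 73 were up in DCIS (32.9%) and 29 of 81 in 10A (35.8%), against 40.5% and 43.3% for the stretch. CLDN1, a tight junction claudin, had 3 of 3 up in DCIS, the highest at 2.93 (FDR 5.39e-06), and 1 of 2 in 10A (1.41). Over input, 2 CLDN1 regions were enriched in DCIS shANCO1 and 0 in DCIS shCTRL. CSTA, a cystatin of the cornified envelope, was up at its promoter in DCIS (1.52) and 10A (0.97).

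MME, the neprilysin gene, had no DCIS region and 2 of 3 up in 10A (1.74, FDR 4.56e-06). The MECOM promoter had 2.43 in 10A (FDR 6.73e-06), at a region enriched over input in neither 10A group, and was not called in DCIS (-0.03). TP63, the master regulator of basal epithelium, is named outside the rule: 7 of its 13 DCIS regions were up, the lowest-FDR one at 2.43 (FDR 1.48e-05), and 3 of 17 in 10A. No list gene of this group other than TPRG1 had a down region. No region of SOX2 was tested in either line.

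Of the receptors and regulators of inflammation, 5 of 12 tested genes had an up region in DCIS and 10 of 12 in 10A. Of their regions, 10 of 27 (37.0%) and 16 of 37 (43.2%) were up, against 40.5% and 43.3% for the stretch. IL20RB, a receptor chain for cytokines of the IL-20 family, had 4 of 4 DCIS regions up and 2.26 at its promoter (FDR 4.06e-07), where 10A had 0.71 (FDR 0.00417). IL1RAP, the accessory chain of the IL-1 receptor, had 3 of 7 up in both lines, at 1.63 and 1.40 for the lowest FDR. NFKBIZ, an IkB protein, had 2.17 (FDR 3.77e-04) and 1.16 (FDR 1.08e-04). TIPARP, an ADP-ribosyltransferase induced by the aryl hydrocarbon receptor, was up in 10A (1.18, FDR 3.18e-05) and had 0.71 in DCIS (FDR 0.35).

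Among 20 genes of PI3K, RAS and growth signalling, 14 had an up region in DCIS and 18 in 10A. Of their regions, 38 of 95 (40.0%) and 53 of 100 (53.0%) were up, against 40.5% and 43.3% for the stretch. ECT2, a guanine nucleotide exchange factor of cytokinesis, was up over its promoter in DCIS (chr3:172748401-172751900, 2.78, FDR 7.58e-11) and 10A (1.00, FDR 1.58e-04). Over input, the enriched region of ECT2 had 5.92 in DCIS shANCO1 and 3.32 in DCIS shCTRL. The 250 bases before the ECT2 start are printed because this was the lowest FDR of its list and the whole promoter was covered. They come from RefSeq (GRCh38.p14, plus strand) with the CCAAT letters in capitals.
ECT2 promoter, chr3:172750476-172750725: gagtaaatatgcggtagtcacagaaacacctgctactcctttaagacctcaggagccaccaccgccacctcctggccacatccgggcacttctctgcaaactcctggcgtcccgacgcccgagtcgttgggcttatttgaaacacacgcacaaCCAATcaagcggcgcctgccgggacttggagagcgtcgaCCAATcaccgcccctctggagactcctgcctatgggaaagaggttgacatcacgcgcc
Of the AP-1, TEAD and CCAAT letters, searched on both strands, CCAAT was found at 2 places and the others were not in this window. CCAAT occurred in 32.0% of 35116 RefSeq promoter windows of this length, AP-1 in 4.20% and TEAD in 11.9%.

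TNIK, a kinase of the Wnt and JNK pathways, had 2.97 at an intronic site in DCIS (FDR 7.17e-09) and 1.73 at its promoter in 10A. IGF2BP2 had 3.05 (FDR 2.93e-08) and 1.25 (FDR 4.11e-07), with 11 regions enriched in DCIS shANCO1 and 3 in DCIS shCTRL. TNK2, a non-receptor tyrosine kinase, had 2.74 (FDR 3.56e-07) and 1.17 (FDR 7.52e-06). PIK3CA, the catalytic subunit of PI3K, is named outside the rule: its promoter had 0.60 in DCIS (FDR 0.42) and 1.14 in 10A (FDR 0.00289).

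Adhesion and matrix genes held the highest DCIS value of the lists, that of COL8A1. Of their regions, 50 of 103 were up in DCIS (48.5%) and 63 of 143 in 10A (44.1%), against 40.5% and 43.3% for the stretch. Of 23 genes, 13 were tested in DCIS and 11 had an up region, while all 14 tested in 10A had one. This list includes FYTTD1, an mRNA export factor, by mistake. ALCAM, the adhesion molecule CD166, had 5 of 5 DCIS regions up, from 1.45 at the promoter to 3.79 in an intron (chr3:105401101-105403300, FDR 1.31e-14). In 10A, 5 of its 11 regions were up, to 1.13 at most. Over input, ALCAM had 5 enriched regions in DCIS shANCO1 and 1 in DCIS shCTRL.

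PHLDB2, which anchors microtubules at the cell cortex, had 9 of 18 DCIS regions up, to 3.91, and 13 of 22 in 10A. FNDC3B, a membrane protein with fibronectin repeats, had 5 of 17 and 13 of 25 up, and its intronic site printed above had 2.28 in 10A (FDR 1.24e-05). That site was enriched over input in neither 10A group. LPP, a focal adhesion protein, had 8 of 14 and 9 of 32 up. ITGB5, an integrin chain, was up at an intron in DCIS (1.87, FDR 6.58e-05) and at the promoter in 10A (FDR 4.06e-06), where DCIS had 0.01. No region of the mucin genes MUC4, MUC13 or MUC20 was tested in either line.

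Of 18 cell cycle and genome maintenance genes, 4 had an up region in DCIS, and 5 of 29 regions were up (17.2%). In 10A the numbers were 16 of 18 genes and 22 of 31 regions (71.0%). All 18 genes had a TSS region in each line. On the stretch, 24.2% of regions near a TSS were up in DCIS and 64.6% in 10A, against 40.5% and 43.3% of all regions. In DCIS the median at their TSS was 0.71, where regions near a TSS had 0.77 on the stretch and 0.13 in the whole table, and 2 of 18 passed the FDR. ATR and TOPBP1, which act together in the replication checkpoint, had 0.83 (FDR 0.0395) and 0.96 (FDR 0.0172) in DCIS and 0.73 and 0.80 in 10A. RUVBL1, an AAA ATPase of chromatin remodellers, had 1.88 and 1.01. TFDP2, a partner of E2F factors, had an intronic gain (1.41) and an intronic loss (-1.54) in DCIS. CEP63 and ANAPC13 share the region between them and were counted with the same values: 0.66 in DCIS (FDR 0.28) and 1.15 in 10A (FDR 1.59e-04).

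Of the tested transcription and chromatin genes, 4 of 13 had an up region in DCIS and 11 of 12 in 10A. Of their regions, 10 of 60 (16.7%) and 26 of 61 (42.6%) were up, against 40.5% and 43.3% for the stretch. Near a TSS the stretch had 24.2% and 64.6%. ZNF148, a zinc finger factor, had 2.87 at an intron in DCIS (FDR 7.32e-07). ZBTB38, which binds methylated DNA, was up in both lines, at 1.69 (FDR 6.78e-05) and 1.88 (FDR 1.17e-05). ZBTB20 had 1.97 and 1.58, and MBNL1, a splicing factor, had 1.53 and 1.41.

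Metabolic and transport genes held 30 of 52 DCIS regions up (57.7%), against 40.5% for the stretch, and 11 of 18 genes had one. MGLL alone had 12 of its 13 DCIS regions up. In 10A, 32 of 59 regions were up (54.2%), against 43.3% for the stretch, and 12 of 17 tested genes had one. NCEH1, a cholesterol ester hydrolase, had 4.22 in an intron (FDR 1.49e-12) and 1.93 at its promoter, with 3 regions enriched over input in DCIS shANCO1 and 0 in DCIS shCTRL. ATP13A3, a P-type ATPase that transports polyamines, had 4.05 in DCIS (FDR 8.97e-09) and 1.25 in 10A at overlapping sites. MGLL had 3.23 (FDR 2.83e-08) and 2.56 at its promoter (FDR 1.56e-07), and 1.41 at the 10A promoter. CP, the copper carrier ceruloplasmin, had regions of both signs in both lines, with -1.18 at its DCIS promoter (FDR 0.0361) and 1.94 in an intron.

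The remaining lists were short. Of the EPH receptors, EPHB3 was down at a TSS region of 2 windows in DCIS (-1.52, FDR 0.00870) and up at another of its 4 regions (1.29), and EPHB1 was up at 1 window in 10A (1.13). Neuronal genes were tested at few places, 5 of 9 in DCIS and 6 of 9 in 10A. GAP43, a growth cone protein, had 2.99 at an intron in DCIS (FDR 1.33e-08) and 1.00 in 10A, and NAALADL2 had 1.92 and 1.41.

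AP-1 letters were more frequent in the gains of DCIS than in its other regions. An AP-1 match lay within the 500 bp at the midpoint of 153 of 621 up regions of the stretch (24.6%, 21.4 to 28.2), of 125 of 911 regions not up (13.7%, 11.6 to 16.1) and of 2 of the 44 down. Over all DCIS regions the share was 15.4%, and up regions in the rest of the genome had 25.5%, within the interval of the stretch. The 10A shares were 20.8% of up regions (18.2 to 23.7) and 16.3% of the others (14.2 to 18.7), with 18.3% over all regions. Within 1000 bp the AP-1 shares were 45.6% and 21.0% in DCIS and 36.7% and 34.9% in 10A. For the TEAD letters the shares of up and other regions were 29.6% and 25.6% in DCIS and 27.8% and 28.8% in 10A, with 27.1% and 27.9% over all regions of the tables. The intervals of the TEAD shares overlapped within 500 bp. Within 1000 bp the DCIS TEAD shares were 53.6% (49.7 to 57.5) and 43.9% (40.7 to 47.1), and those of the rest of the genome 52.1% and 45.0%. The 10A TEAD shares at that width ran the other way, 48.3% and 50.1%. The median GC content was 43.2% in the up regions of DCIS and 45.8% in the others, and its part in the motif shares was not tested.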

How the data were processed

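H3K27Ac ChIP-seq and input libraries of 10A and DCIS cells were analysed from 6 deposited region tables. According to the study's methods and the labels, the authors used BWA and Rsubread for alignment (GRCh38) and SAMtools for sorting and deduplication, and compared windows with csaw. The window filter, the merging distance and the normalization between libraries are not given in the sources used here. The deposited tables give, per merged region, the authors' log2 fold change of a representative window, a combined p-value and an FDR, window counts and gene overlaps; group comparisons were all they held, so the authors' values were used as the measurements and no test was repeated. FDR under 0.05 with direction up or down set a call. Libraries, counts and depth were not analysed here, and intervals cover regions only. HOMER is named in the submitters' processing notes.

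Genes came from GENCODE release 44. As a check of the build, 0 regions passed a chromosome end, and 95.2% of 6227 deposited gene placements lay within 3 kb of the GENCODE gene. Regions overlapped if they shared 1 bp. Over-input differences were taken between enriched regions of both groups, paired by most shared bases. Motifs were counted at region midpoints. Named genes were, per list, those with the lowest FDR in either line, a down region, or overlapping up regions in both lines, to 6 at most, together with the extreme regions and the genes with most up regions. Members, lists and rules were chosen with earlier results of these data known. Python 3.11.15, pandas 2.3.3, numpy 2.4.6 and scipy 1.17.1 were used, and the interval and overlap functions were tested on simulated data. Alternative settings are described under the dependence on processing. Results that need a withheld item are not reported here.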

Additional observations from a re-analysis of the deposited data

How the results depend on the processing

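Across 17 results and 76 alternatives, 49 values stayed within the main interval or within 1.5 times the main count, 27 did not and 0 changed sign where the main interval excluded 0. The share of regions up in DCIS was 29.4% at an FDR under 0.01, 45.7% under 0.1 and 29.0% where regions also had to lie 1 log2 unit above the table's median. In 10A it was 24.99%, 52.5% and 1.44% under these settings, 54.4% with at least 5 windows and 26.1% with a log2 fold change of at least 1. Down regions in DCIS were 26 at an FDR under 0.01, and in 10A 1 under 0.01, 8 under 0.1, 2 with at least 5 windows and 2 with a log2 fold change of at least 1. The direct gap of 10A was -0.024 for regions enriched in neither group. Enriched regions at an FDR under 1e-10 were 285 in DCIS shCTRL and 294 in 10A shCTRL. With at least 5 windows they were 257 and 196 in DCIS shANCO1 and shCTRL, and 608 and 225 in 10A. List genes up at the TSS in DCIS were 21. AP-1 shares of up regions followed the width searched by construction, 10.1% at 200 bp and 45.6% at 1000 bp in DCIS, and 9.73% and 36.7% in 10A. Regions of 10A up in both lines were 280, and 153 at an FDR under 0.01 or 174 with a reciprocal overlap of 50%. The DCIS direct gap lay between 0.43 and 0.52 under its 6 listed alternatives (at least 5 windows, from 94 Mb, no TSS, enriched in neither or in either group, against chromosome 3 below 80 Mb), while other classes of regions ran from 0.04 to 0.66. Its over-input gap lay between -0.17 and -0.08 under 4. Other than for the settings' own construction, the cause of these moves was not tested. No paired analysis was possible because the tables hold whole groups with no replicate columns, and leaving out a replicate could not be run for the same reason.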
